A study of Mus musculus with 12 samples.

Results

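The Fc receptor genes measured here are Fcgr1, Fcgr3, Fcgr4, Fcer1g, Fcgr2b, Fcer2a and Fcrla, 7 of the 24478 gene symbols in the deposited tables. They were chosen by symbol, as a gene family named with earlier results of these data in view. The rise of Fcgr4 over controls was among those results, so its differences from controls are given as values with no test. Where a symbol had several transcripts, the one with the most reads over the 12 libraries stood for the gene. All 7 genes passed the filter on low counts.

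Poly(A) RNA of mouse thymic tissue was sequenced in 12 libraries, 3 in each of 4 groups. T58A lymphomas were thymic lymphomas labelled as T cells with only the ectopic mutant MYC T58A. S62A lymphomas were thymic lymphomas labelled as T cells with only the ectopic mutant MYC S62A. Splenomegaly masses were thymic masses of S62A animals with an enlarged spleen, labelled as T and B cells with ectopic MYC S62A together with endogenous MYC. Controls were thymic tissue labelled as T cells with endogenous MYC alone. T58A and S62A name alanine substitutions at a threonine and a serine whose phosphorylation governs the turnover of the MYC protein. All lymphomas and masses arose spontaneously, per the labels. The sources used here do not name the promoter that drives the transgene, the ages of the animals or the number of animals behind a group, so the p-values speak of the spread among libraries, which may be technical in part.

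Fc receptors bind the constant part of antibodies and tie antibody to the cells that act on it. In the mouse, the activating receptors for IgG signal through the Fc receptor gamma chain, which carries an activation motif that recruits the kinase SYK, and FcγRIIB opposes them through an inhibitory motif that recruits the phosphatase SHIP1. Macrophages, monocytes, neutrophils and natural killer cells carry activating receptors in differing sets, B cells carry FcγRIIB and the low-affinity IgE receptor, and T cells and thymocytes carry little of either.

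Depth ran from 9577373 to 22437969 reads assigned to genes per library. T cell genes were read in every library, with 10 genes summing to 5190 to 6754 CPM (a gene's reads per unit of library depth, TMM-scaled) in T58A lymphomas, 3167 to 7224 CPM in S62A lymphomas, 998 to 1119 CPM in splenomegaly masses and 11743 to 12488 CPM in controls. Myc reads, which may come from the gene or the transgene, were higher by 0.79 ± 0.13 on the log2 scale in T58A lymphomas (adjusted p = 0.000876) and by 1.06 ± 0.13 in S62A lymphomas (adjusted p = 0.000109), and differed by 0.15 ± 0.13 in splenomegaly masses (adjusted p = 0.347), each against controls. The titles hold a letter that is not explained. T58A lymphomas and control 3 carry H, all S62A libraries carry I, and controls 1 and 2 carry G, so letter and group cannot be told apart for S62A libraries, masses included, against controls or against T58A lymphomas. In bulk tissue, fewer cells of a type and less RNA per cell cannot be told apart, and this holds for every level below.

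Of the 7 genes, 5 lie close together on chromosome 1 of the mm9 build used by the deposited tables. Fcrla spans chr1:172847725-172857714 and Fcgr2b chr1:172890689-172906202, both on the minus strand. Fcgr4 follows at chr1:172949057-172959892 on the plus strand, then Fcgr3 at chr1:172981300-172989534 and Fcer1g at chr1:173159703-173164480 on the minus strand. Fcgr1 lies at chr3:96086832-96097892 and Fcer2a at chr8:3681737-3694174, both on the minus strand. Of 7 other genes tested between Fcrlb and Fcer1g, such as Sdhc and Tomm40l, 1 was lower in each lymphoma group against controls. Among all genes, 17.4% were lower in T58A lymphomas and 22.2% in S62A lymphomas. The median log2 difference of these 7 neighbours was -0.22 for T58A lymphomas, -0.45 for S62A lymphomas and -0.12 for splenomegaly masses.

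Promoter sequence is shown for the 4 genes that share a short motif just before their start sites. The motif is GAGGAA, or TTCCTC on the other strand, a core bound by factors of the Ets family such as PU.1 of myeloid and B cells; it was picked after the sequences had been read. Each line gives the 150 bases before a start, 5′ to 3′ on the gene's strand, from RefSeq on GRCm38.p6, with the motif in capitals.
Fcgr4, chr1:171018776-171018925, plus strand: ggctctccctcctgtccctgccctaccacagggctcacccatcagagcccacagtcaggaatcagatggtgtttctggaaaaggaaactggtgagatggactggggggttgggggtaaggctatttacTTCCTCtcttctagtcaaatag
Fcgr3, chr1:171059395-171059544, minus strand: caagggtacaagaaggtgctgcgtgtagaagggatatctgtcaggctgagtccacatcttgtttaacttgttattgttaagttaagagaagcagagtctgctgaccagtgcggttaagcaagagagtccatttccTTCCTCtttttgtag
Fcgr1, chr3:96293970-96294119, minus strand: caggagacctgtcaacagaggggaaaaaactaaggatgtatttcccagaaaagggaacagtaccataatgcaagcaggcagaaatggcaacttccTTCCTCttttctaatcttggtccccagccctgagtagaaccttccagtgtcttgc
Fcrla, chr1:170927584-170927733, minus strand: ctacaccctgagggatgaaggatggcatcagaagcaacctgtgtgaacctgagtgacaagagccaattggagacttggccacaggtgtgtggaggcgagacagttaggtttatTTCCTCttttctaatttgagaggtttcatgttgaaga

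The motif began 22 bases before the start of Fcgr4, 15 bases before the start shown for Fcgr3, 55 bases before that of Fcgr1 and 37 bases before that of Fcrla. All 3 activating receptor genes held it, and so did 1 gene of B cells. The letters were not found in the 250 bases before the starts of Fcgr2b, Fcer1g and Fcer2a. Among all 32851 mouse start sites in the same table, 23.3% held the motif within 250 bases and 14.5% within 150 bases. A match of 6 letters describes the sequence and is no measure of binding.

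Fcgr4 encodes FcγRIV, an activating receptor of monocytes, macrophages and neutrophils that binds IgG2a and IgG2b, and it was the gene with the widest range. It stood at 319, 72.1 and 21.4 CPM in T58A lymphomas, at 238, 457 and 24.1 CPM in S62A lymphomas and at 1445, 290.4 and 133 CPM in splenomegaly masses, against 0.567, 0.661 and 0.563 CPM in controls. Every lymphoma and mass lay above every control, while libraries of one tumour group differed among themselves by 14.9 times (T58A), 19.0 times (S62A) and 10.9 times (splenomegaly). The controls held 11, 12 and 13 reads of it, so its control level rests on few reads. The fitted log2 difference from controls was 7.83 ± 1.58 for T58A lymphomas, 8.64 ± 1.62 for S62A lymphomas and 10.01 ± 1.69 for splenomegaly masses (SE, n = 3 each).

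Among the tumour groups Fcgr4 gave no call. S62A against T58A lymphomas differed by 0.80 ± 1.09 on the log2 scale (adjusted p = 0.695, edgeR's quasi-likelihood test over 15606 genes). Splenomegaly masses stood 1.38 ± 1.11 above S62A lymphomas (adjusted p = 0.309) and 2.18 ± 1.13 above T58A lymphomas (adjusted p = 0.137). Splenomegaly mass 1 was the highest library of all. Without it the masses differed from S62A lymphomas by -0.13, and without T58A lymphoma 1 they exceeded T58A lymphomas by 3.73 (adjusted p = 0.0409).

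Fcgr3 encodes FcγRIII, the low-affinity activating receptor of myeloid and natural killer cells. It stood at 55.1, 27.7 and 55.3 CPM in T58A lymphomas, at 21.4, 33.5 and 18.6 CPM in S62A lymphomas and at 162, 85.4 and 96.3 CPM in splenomegaly masses, against 13.1, 13.7 and 11.6 CPM in controls. All tumour libraries lay above all controls, and all splenomegaly masses above all lymphomas. The log2 difference from controls was 1.85 ± 0.33 in T58A lymphomas (adjusted p = 0.00151), 0.94 ± 0.32 in S62A lymphomas (adjusted p = 0.0358) and 3.17 ± 0.34 in splenomegaly masses (adjusted p = 3.6e-05). Masses also exceeded S62A lymphomas by 2.23 ± 0.33 (adjusted p = 0.000243) and T58A lymphomas by 1.32 ± 0.32 (adjusted p = 0.00654). S62A and T58A lymphomas overlapped, with a difference of -0.91 ± 0.32 (adjusted p = 0.127). The call in S62A lymphomas against controls was lost without any 1 control and without S62A lymphoma 2, with adjusted p between 0.0735 and 0.143.

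Fcgr1 encodes FcγRI, the high-affinity IgG receptor of monocytes and macrophages. It stood at 29.0, 6.87 and 10.7 CPM in T58A lymphomas, at 19.8, 30.4 and 6.93 CPM in S62A lymphomas and at 145, 51.5 and 37.6 CPM in splenomegaly masses, against 4.13, 3.75 and 2.86 CPM in controls. No tumour library came down to the controls, and the masses again lay above both lymphoma groups. The log2 difference from controls was 2.12 ± 0.68 in T58A lymphomas (adjusted p = 0.0318), 2.41 ± 0.69 in S62A lymphomas (adjusted p = 0.0156) and 4.45 ± 0.74 in splenomegaly masses (adjusted p = 0.000609). Masses exceeded S62A lymphomas by 2.04 ± 0.66 (adjusted p = 0.0227) and T58A lymphomas by 2.33 ± 0.67 (adjusted p = 0.0153). The lymphoma calls leaned on single libraries. Leaving out any 1 control or T58A lymphoma 1 gave adjusted p between 0.0754 and 0.154 in T58A lymphomas, leaving out control 3 or S62A lymphoma 2 gave 0.0581 and 0.0565 in S62A lymphomas, and without splenomegaly mass 1 the masses no longer passed against S62A lymphomas (1.28, adjusted p = 0.125) or T58A lymphomas (1.58, adjusted p = 0.0755). The masses also missed the threshold against S62A lymphomas without S62A lymphoma 1 or 3 (adjusted p = 0.0545 and 0.0628) and against T58A lymphomas without T58A lymphoma 3 (adjusted p = 0.0561).

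Fcer1g encodes the Fc receptor gamma chain, the signalling subunit that the 3 activating receptors need at the cell surface. It stood at 164.5, 57.7 and 49.1 CPM in T58A lymphomas, at 116, 165 and 26.0 CPM in S62A lymphomas and at 573, 134 and 98.1 CPM in splenomegaly masses, against 28.5, 28.8 and 24.8 CPM in controls. S62A lymphoma 3 lay within the range of the controls, and the other tumour libraries lay above it. It was called higher in splenomegaly masses, by 3.29 ± 0.81 (adjusted p = 0.00592). The difference did not pass in T58A lymphomas, where the groups did not overlap (1.73 ± 0.76, adjusted p = 0.0983), or in S62A lymphomas (1.91 ± 0.77, adjusted p = 0.0632). Without S62A lymphoma 3 the difference in that group was 2.36 (adjusted p = 0.022). The tumour groups overlapped: S62A against T58A lymphomas differed by 0.18 ± 0.74 (adjusted p = 0.909), and masses stood 1.39 ± 0.75 above S62A lymphomas (adjusted p = 0.137) and 1.57 ± 0.75 above T58A lymphomas (adjusted p = 0.109), or 2.33 without T58A lymphoma 1 (adjusted p = 0.0494).

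**Figure D1:**
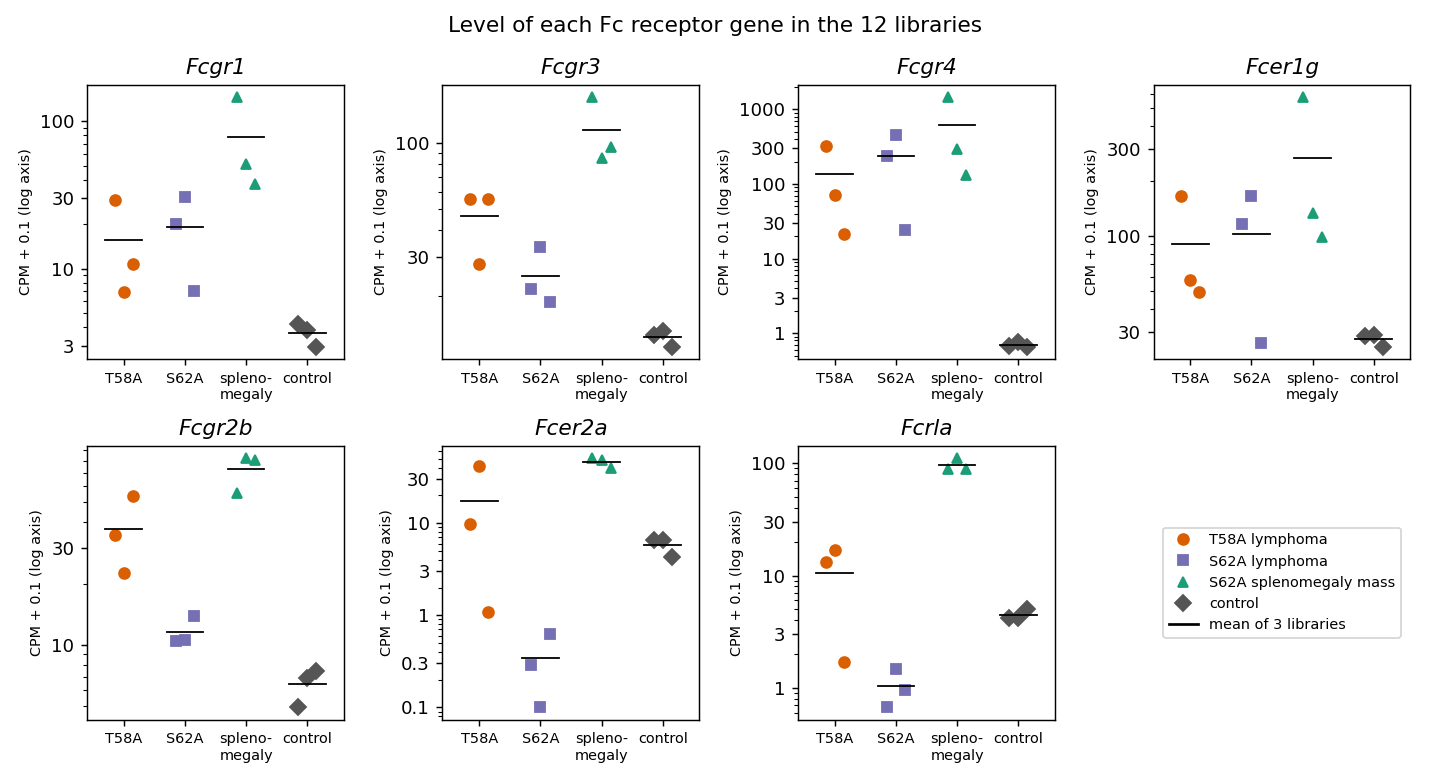
CPM (plus 0.1, log axis) of each of the 7 Fc receptor genes in the 3 libraries of each group, with the group mean as a line. Fcgr4 parts the tumours (21.4 CPM and more) from the controls (0.661 CPM and less) by the widest gap, and Fcer2a and Fcrla split the S62A lymphomas (low) from the splenomegaly masses (high).

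Per transcript length, Fcgr4 stood nearer to its signalling chain in every tumour library than in any control. The ratio of Fcgr4 to Fcer1g in FPKM (fragments scaled to transcript length and library depth) was 0.880, 0.568 and 0.198 for T58A lymphomas, 0.928, 1.26 and 0.42 for S62A lymphomas and 1.15, 0.988 and 0.614 for splenomegaly masses, against 0.00906, 0.0104 and 0.0103 for controls. Levels of Fcgr4 itself were 299, 68.8 and 20.6 FPKM in T58A lymphomas, 214, 418 and 21.9 FPKM in S62A lymphomas and 1280, 269 and 118 FPKM in splenomegaly masses, against 0.553, 0.645 and 0.54 FPKM in controls. In S62A lymphoma 2 and splenomegaly mass 1 the receptor exceeded the chain. In controls the chain stood at 52.3 to 61.9 FPKM, above Fcgr3, the highest of the 4 Fcgr genes there, at 10.1 to 12.2 FPKM.

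Fcgr2b encodes FcγRIIB, the inhibitory IgG receptor, found on B cells and on macrophages. It stood at 34.7, 22.6 and 53.9 CPM in T58A lymphomas, at 10.4, 10.5 and 13.8 CPM in S62A lymphomas and at 55.8, 82.4 and 80.7 CPM in splenomegaly masses, against 4.85, 6.83 and 7.32 CPM in controls. The 4 groups did not overlap at all and fell in the order control, S62A lymphoma, T58A lymphoma and splenomegaly mass. The log2 difference from controls was 2.55 ± 0.32 in T58A lymphomas (adjusted p = 0.00018), 0.87 ± 0.31 in S62A lymphomas (adjusted p = 0.0391) and 3.52 ± 0.33 in splenomegaly masses (adjusted p = 1.3e-05). S62A lymphomas were lower than T58A lymphomas by 1.68 ± 0.31 (-1.68, adjusted p = 0.0236, or 0.232 with only those groups fitted), and masses were above S62A lymphomas by 2.66 ± 0.32 (adjusted p = 5.7e-05) and above T58A lymphomas by 0.98 ± 0.30 (adjusted p = 0.0199). The small rise in S62A lymphomas over controls was lost when any 1 library of either group was left out, with adjusted p between 0.0511 and 0.136. Without T58A lymphoma 1, splenomegaly mass 2 or splenomegaly mass 3 the difference between masses and T58A lymphomas missed the threshold (adjusted p between 0.058 and 0.0648), and without S62A lymphoma 2 that between S62A and T58A lymphomas did (adjusted p = 0.053).

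The balance of activating to inhibitory receptors differed from library to library. The summed FPKM of Fcgr1, Fcgr3 and Fcgr4 over that of Fcgr2b was 12.9, 5.23 and 1.67 for T58A lymphomas, 30.1, 56.2 and 3.77 for S62A lymphomas and 34.9, 5.58 and 3.46 for splenomegaly masses, against 3.48, 2.56 and 1.99 for controls. S62A lymphomas lay above all controls, while 1 T58A lymphoma lay below them and 1 mass within their range. On the log2 scale the ratio averaged 2.27 ± 1.48 for T58A lymphomas, 4.21 ± 2.04 for S62A lymphomas, 3.13 ± 1.76 for masses and 1.38 ± 0.40 for controls (SD, n = 3 each), and no test was run on it.

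The leading receptor also differed. Fcgr4 made up 77.4, 60.2 and 17.4% of the summed FPKM of the 4 IgG receptor genes for T58A lymphomas, 86.4, 89.6 and 43.1% for S62A lymphomas and 84.7, 62.9 and 43.3% for splenomegaly masses, against 3.07, 3.19 and 3.02% for controls. Fcgr3 led in all 3 controls, with 56.6 to 64.5% of the sum, and Fcgr2b came next there with 22.3 to 33.4%. T58A lymphoma 3 was the tumour library in which Fcgr4 did not lead. Fcgr2b and Fcgr3 share sequence: 166 stretches of 50 bases are common to their annotated transcripts, 10.2% of those of Fcgr3 and 4.48% of those of Fcgr2b. The sources used here do not say how reads that fit both were counted, so part of each level may belong to the other gene; no other pair of the 7 genes shared such a stretch.

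**Figure D2:**
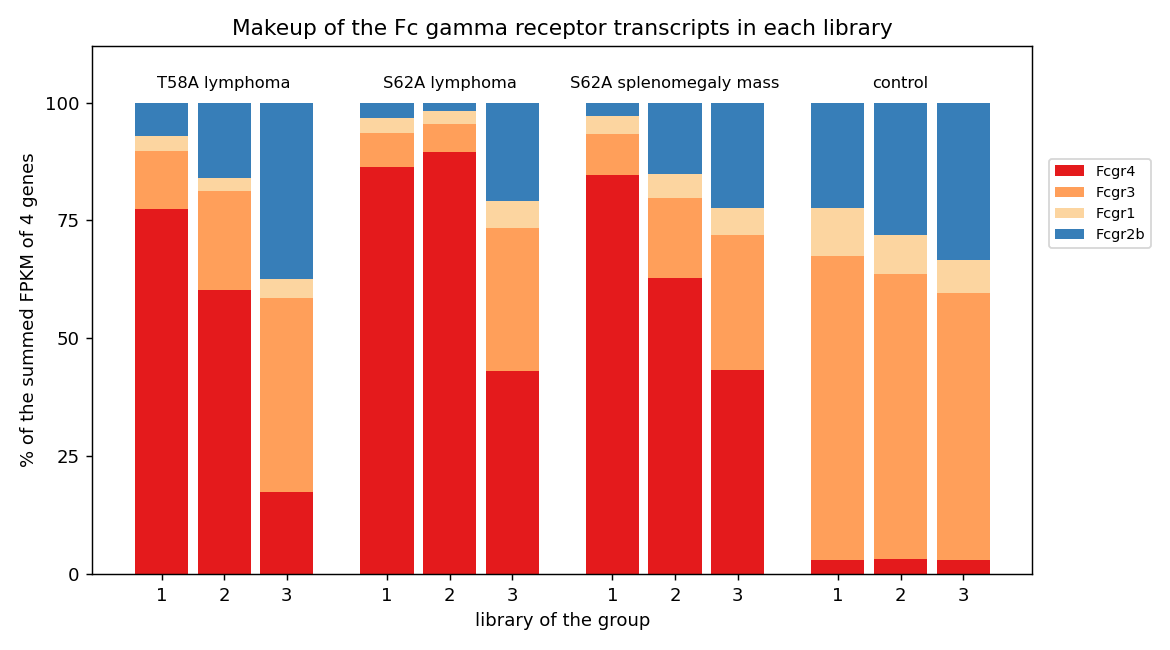
Share (%) of each of the 4 IgG receptor genes in their summed FPKM, 1 bar per library. Fcgr4 makes up 17.4 to 89.6% in the tumour libraries and 3.02 to 3.19% in controls, where Fcgr3 leads.

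Fcer2a and Fcrla are genes of B cells, and they split the groups in another way. Fcer2a encodes CD23, the low-affinity IgE receptor, which mature B cells carry. It stood at 9.81, 41.5 and 0.978 CPM in T58A lymphomas, at 0.191, 0 and 0.533 CPM in S62A lymphomas and at 50.7, 48.7 and 40.0 CPM in splenomegaly masses, against 6.45, 6.44 and 4.20 CPM in controls. S62A lymphomas lay below every other library, with 3, 0 and 8 reads, masses lay above all controls, and T58A lymphomas spread over 42.4 times. Fcer2a fell by 4.50 ± 1.20 in S62A lymphomas (log2 difference from controls -4.50, adjusted p = 0.0109) and rose in splenomegaly masses by 3.03 ± 0.95 (adjusted p = 0.0207), a call lost without any 1 control (adjusted p between 0.0588 and 0.072).

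The T58A lymphomas gave no call for Fcer2a against controls (1.61 ± 0.91, adjusted p = 0.184). The sign of that value rested on single libraries, with -0.10 without T58A lymphoma 2 and 2.17 (adjusted p = 0.0213) without T58A lymphoma 3. Splenomegaly masses stood 7.53 ± 1.27 above S62A lymphomas (adjusted p = 0.000531) and did not differ past the threshold from T58A lymphomas (1.41 ± 0.89, adjusted p = 0.214), except without T58A lymphoma 2 (3.16, adjusted p = 0.0147). S62A lymphomas were below T58A lymphomas (-6.11 ± 1.22, adjusted p = 0.0298), a call lost with only those groups fitted (adjusted p = 0.241) and without T58A lymphoma 2, S62A lymphoma 1 or S62A lymphoma 2 (adjusted p between 0.0636 and 0.0658).

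Fcrla encodes an Fc receptor-like protein that stays inside B cells. It stood at 13.2, 16.6 and 1.61 CPM in T58A lymphomas, at 0.572, 1.36 and 0.866 CPM in S62A lymphomas and at 89.4, 111 and 88.2 CPM in splenomegaly masses, against 4.08, 4.08 and 4.89 CPM in controls. The masses lay above all other libraries and the S62A lymphomas below all others, with T58A lymphoma 3 far below the other 2 of its group. For Fcer2a, in contrast, T58A lymphoma 2 reached the range of the masses. The log2 difference from controls was 4.46 ± 0.64 in masses (adjusted p = 0.000234) and -2.22 ± 0.67 in S62A lymphomas (adjusted p = 0.0198), and it did not pass in T58A lymphomas (1.26 ± 0.58, adjusted p = 0.111) unless T58A lymphoma 3 was left out (1.77, adjusted p = 0.0008). The fall in S62A lymphomas missed the threshold without control 3, S62A lymphoma 1 or S62A lymphoma 3 (adjusted p between 0.0507 and 0.0673).

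Between the tumour groups, Fcrla in masses exceeded that in S62A lymphomas by 6.68 ± 0.74 (adjusted p = 3.9e-05) and that in T58A lymphomas by 3.20 ± 0.60 (adjusted p = 0.00161). S62A lymphomas were below T58A lymphomas (-3.49 ± 0.68, adjusted p = 0.0278), a call lost with only those groups fitted (adjusted p = 0.24) and without T58A lymphoma 2 or any 1 S62A lymphoma (adjusted p between 0.0508 and 0.0772). The transcript that stood for Fcrla is a non-coding variant in RefSeq, and the 3 transcripts listed held nearly the same reads, between 4867 and 4871 over all libraries.

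**Figure D3:**
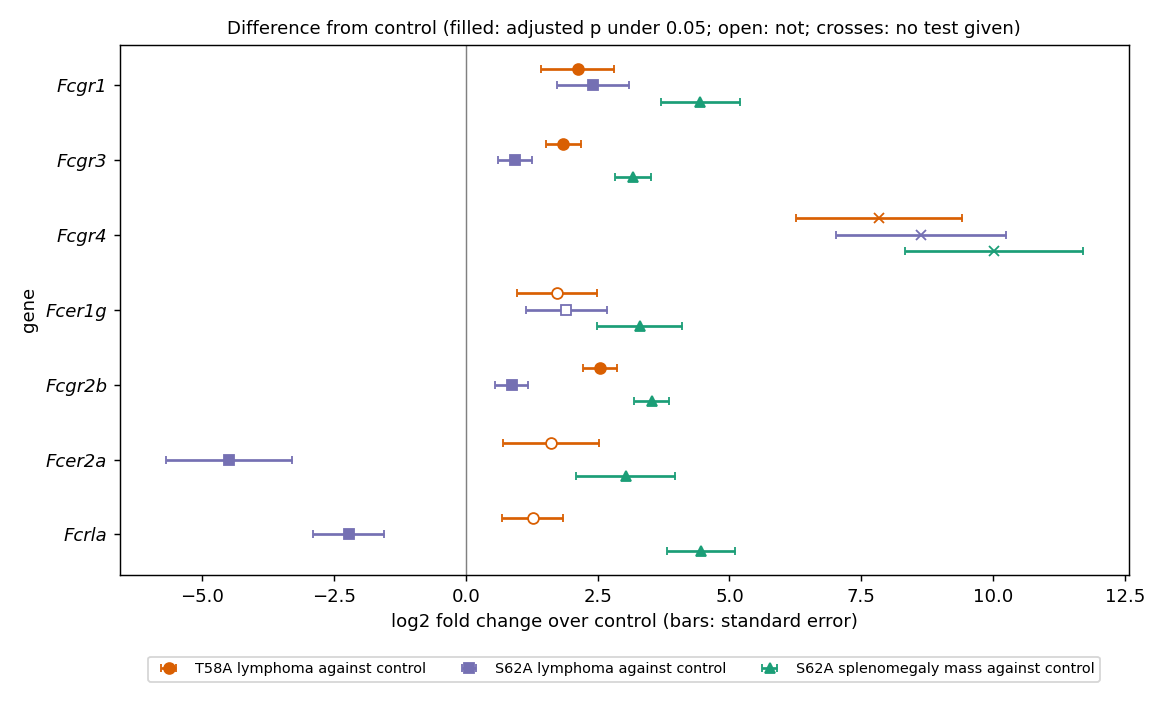
Log2 fold change over controls of each gene for each tumour group, with the standard error as a bar; filled points passed an adjusted p of 0.05, open points did not, and crosses mark Fcgr4, for which no test is given. Values run from -4.50 for Fcer2a in S62A lymphomas to 10.01 for Fcgr4 in splenomegaly masses, and the 2 B cell genes lie left of 0 in S62A lymphomas alone.

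Leaving Fcgr4 aside, 3 of the other 6 genes were called higher in T58A lymphomas against controls and 3 did not pass, where 18.8% of all 15606 genes tested were called higher and 17.4% lower. In S62A lymphomas against controls 3 of the 6 were higher and 2 lower, beside 21.9% higher and 22.2% lower among all genes. In splenomegaly masses against controls all 6 were higher, beside 22.9% higher and 26.3% lower among all genes. The median log2 difference of the 7 genes, Fcgr4 included, was 1.85, 0.94 and 3.52 in the 3 comparisons, and that of all genes was 0.01, 0.00 and -0.08. These comparisons share the same controls, and the genes were chosen with such results known, so the counts are descriptions. With the libraries of title letter H alone, control 3 against the 3 T58A lymphomas, the log2 differences were 2.45 for Fcgr1, 2.01 for Fcgr3, 7.92 for Fcgr4, 1.88 for Fcer1g, 2.35 for Fcgr2b, 2.05 for Fcer2a and 1.10 for Fcrla. The lone control then gave no spread of its own, so only these differences are given.

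Fewer genes of any kind parted the lymphoma groups. In S62A against T58A lymphomas 0 of the 7 were higher and 3 were lower (Fcgr2b, Fcer2a and Fcrla), where 0.859% of all genes were higher and 2.29% lower. With only those groups fitted 0 were lower (4 at an unadjusted p, where 2045 genes passed in either direction). At an unadjusted p under 0.05, 0 were higher and 4 lower by edgeR, the fourth being Fcgr3, and 0 and 4 by DESeq2. Among all 15606 genes, 3654 passed that looser threshold in either direction by edgeR and 3954 by DESeq2. In splenomegaly masses against S62A lymphomas 5 were higher (all but Fcgr4 and Fcer1g), beside 25.6% higher and 28.6% lower among all genes. Against T58A lymphomas 4 were higher (Fcgr1, Fcgr3, Fcgr2b and Fcrla), beside 20.5% higher and 24.6% lower. The median of the 7 genes was -0.91, 2.23 and 1.57 in these comparisons, against -0.01, -0.07 and -0.07 over all genes.

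Of 12 other Fc receptor genes, 7 had enough reads to test, and Fcer1a, Ms4a2, Fcrlb, Fcrl6 and Fcamr did not. Fcer1a and Ms4a2 are the subunits with which Fcer1g forms the high-affinity IgE receptor of mast cells. Against controls 1 of the 7 was higher and 1 lower in T58A lymphomas, 1 higher and 2 lower in S62A lymphomas, and 4 higher and 1 lower in splenomegaly masses. Among all genes, 18.8%, 21.9% and 22.9% were higher and 17.4%, 22.2% and 26.3% lower in the same comparisons. The lymphoma counts lay near those shares.

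Fcrl5, an Fc receptor-like gene of B cell subsets and plasma cells, also ranged widely. It stood at 60.7, 10.4 and 2.07 CPM in T58A lymphomas, at 48.2, 83.4 and 2.33 CPM in S62A lymphomas and at 332, 106 and 47.7 CPM in masses, against 1.03, 0.826 and 0.606 CPM in controls. All tumour libraries lay above all controls, and the library order within each tumour group was that of Fcgr4 rather than that of Fcrla. The log2 difference from controls was 4.89 ± 1.47 in T58A lymphomas (adjusted p = 0.0237), 5.76 ± 1.51 in S62A lymphomas (adjusted p = 0.0101) and 7.62 ± 1.60 in masses (adjusted p = 0.00253). In S62A lymphomas 1 and 2 it was high where 10 B cell genes summed to 32.3 and 53.6 CPM, below the 80.4 to 85.5 CPM of the controls.

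The 6 other receptors of the list that were tested varied in direction. Fcrls, another Fc receptor-like gene, gave no call against controls, with 2.87 ± 1.16 in T58A lymphomas (adjusted p = 0.074), 2.19 ± 1.14 in S62A lymphomas (adjusted p = 0.141) and 0.67 ± 1.14 in masses (adjusted p = 0.65). Fcrl1 and Fcmr, both of B cells, were higher in masses against controls by 4.33 ± 0.72 (adjusted p = 0.000618) and 3.72 ± 0.84 (adjusted p = 0.00374). Fcmr, the receptor for IgM, was lower in S62A than in T58A lymphomas (-4.27 ± 0.92, adjusted p = 0.0353), a call lost with only those groups fitted. It stood at 11.2, 14.2 and 0.805 CPM in T58A lymphomas and at 0.509, 0.215 and 0.600 CPM in S62A lymphomas. Fcgrt, the neonatal receptor that recycles IgG, was higher in masses by 2.82 ± 0.52 (adjusted p = 0.00121). Trim21, a receptor for antibody inside the cell that most cell types hold, was lower in T58A lymphomas (-1.20 ± 0.15, adjusted p = 0.000224) and S62A lymphomas (-1.36 ± 0.16, adjusted p = 7.8e-05) and not past the threshold in masses (-0.22 ± 0.15, adjusted p = 0.262). Pigr, which carries IgA and IgM across epithelium, was lower in S62A lymphomas (-6.41 ± 1.38, adjusted p = 0.00365) and in masses (-3.58 ± 1.11, adjusted p = 0.0202).

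Genes that carry the activating signal were counted against controls as well. Of 17 tested, 4 were higher and 3 lower in T58A lymphomas, 4 higher and 4 lower in S62A lymphomas, and 11 higher in masses. Among all genes, 18.8%, 21.9% and 22.9% were higher in those 3 comparisons, so the share in the lymphomas lay near the background, and no difference between the groups' counts was tested. Syk, the kinase that the gamma chain recruits, was higher by 2.45 ± 0.32 in T58A lymphomas (adjusted p = 0.000236), 2.57 ± 0.32 in S62A lymphomas (adjusted p = 0.000132) and 3.37 ± 0.33 in masses (adjusted p = 1.9e-05). The adaptor Lcp2 (SLP-76) and Pik3cd, a catalytic subunit of phosphoinositide 3-kinase, which T cells also use, did not pass in any of these groups, with values between -0.34 and 0.16. B cell receptor signalling uses many of the same 17 genes.

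Of 7 genes that carry the inhibitory signal, 1 was higher and 1 lower in T58A lymphomas, 2 higher and 1 lower in S62A lymphomas, and 6 higher and 1 lower in masses. Among all genes, 18.8%, 21.9% and 22.9% were higher and 17.4%, 22.2% and 26.3% lower. The lymphoma counts lay near those shares. Inpp5d encodes SHIP1, the phosphatase that FcγRIIB recruits, and it was higher in masses by 0.81 ± 0.13 (adjusted p = 0.00041) and not past the threshold in T58A (0.07 ± 0.13, adjusted p = 0.697) or S62A lymphomas (0.16 ± 0.13, adjusted p = 0.323). Ptpn6 (SHP-1) was higher in masses by 1.09 ± 0.33 (adjusted p = 0.0173). Ptpn11 (SHP-2) was higher in S62A lymphomas by 0.45 ± 0.13 (adjusted p = 0.015) and in masses by 0.70 ± 0.13 (adjusted p = 0.00106).

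Most macrophage and monocyte genes tested were also higher in the tumour groups. Of 15 tested, 10 were higher in T58A lymphomas, 10 were higher in S62A lymphomas, and 13 were higher in masses, against controls, beside 18.8%, 21.9% and 22.9% of all genes, and the others did not pass. Their summed level was 3557, 3007 and 2210 CPM in T58A lymphomas, 2045, 3276 and 3128 CPM in S62A lymphomas and 8165, 4627 and 4478 CPM in masses, against 635 to 747 CPM in controls, and none of the 15 was at 0 in a group. Lyz2, a lysozyme of macrophages and neutrophils, was higher by 2.27 ± 0.25 in T58A lymphomas (adjusted p = 9.5e-05), 1.71 ± 0.25 in S62A lymphomas (adjusted p = 0.00036) and 3.08 ± 0.26 in masses (adjusted p = 8.0e-06). C1qa, a complement C1q chain of tissue macrophages, was higher by 1.61 ± 0.33 (adjusted p = 0.00376), 1.07 ± 0.33 (adjusted p = 0.022) and 3.12 ± 0.35 (adjusted p = 4.8e-05) in the same groups. Itgam, an integrin chain of myeloid cells named here after its values were seen, did not follow the receptors: it averaged 579 CPM in T58A lymphomas, 947 CPM in S62A lymphomas and 79.3 CPM in masses, against 11.9 CPM in controls, and was lower in masses than in S62A lymphomas (-3.58 ± 0.48, adjusted p = 0.000123). It makes up part of the summed level. The part of macrophages in the receptor levels was not tested. Fcgr4 and the macrophage sum ranked the libraries alike within T58A lymphomas and within masses. They did not within S62A lymphomas, where library 3 had 24.1 CPM of Fcgr4 beside a sum of 3128 CPM and library 1 had 238 CPM beside 2045 CPM.

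Against controls, B cell genes rose with Fcer2a and Fcrla in masses and followed them only in part in the lymphomas. Fcer2a and Fcrla gave no call in T58A lymphomas, unlike most B cell genes. Both were lower in S62A lymphomas, as were only some of the B cell genes. Of 10 tested, 6 were higher in T58A lymphomas, 3 were lower in S62A lymphomas and all 10 were higher in masses, against controls, beside the shares of all genes given above. They summed to 289, 422 and 39.2 CPM in T58A lymphomas, 32.3, 53.6 and 36.3 CPM in S62A lymphomas and 2115, 2893 and 2424 CPM in masses, against 80.4 to 85.5 CPM in controls, with none at 0 in a group. T58A lymphoma 3, low in both receptor genes, was the low library here too. Cd22, an inhibitory receptor of B cells, was higher by 2.67 ± 0.49 in T58A lymphomas (adjusted p = 0.00176) and by 6.13 ± 0.56 in masses (adjusted p = 1.2e-05), and not past the threshold in S62A lymphomas (0.31 ± 0.48, adjusted p = 0.624). Cd79b gave no call in T58A lymphomas (0.76 ± 0.64, adjusted p = 0.379) or S62A lymphomas (-1.12 ± 0.65, adjusted p = 0.185). In masses Cd79b was higher by 4.28 ± 0.72 (adjusted p = 0.000635). Ms4a1 was higher in T58A lymphomas (2.67 ± 0.84, adjusted p = 0.0293) and in masses (6.24 ± 0.97, adjusted p = 0.000385). It gave no call in S62A lymphomas (-0.63 ± 0.88, adjusted p = 0.586). The part of B cells in the levels of Fcgr2b, Fcer2a and Fcrla was not tested.

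**Figure D4:**
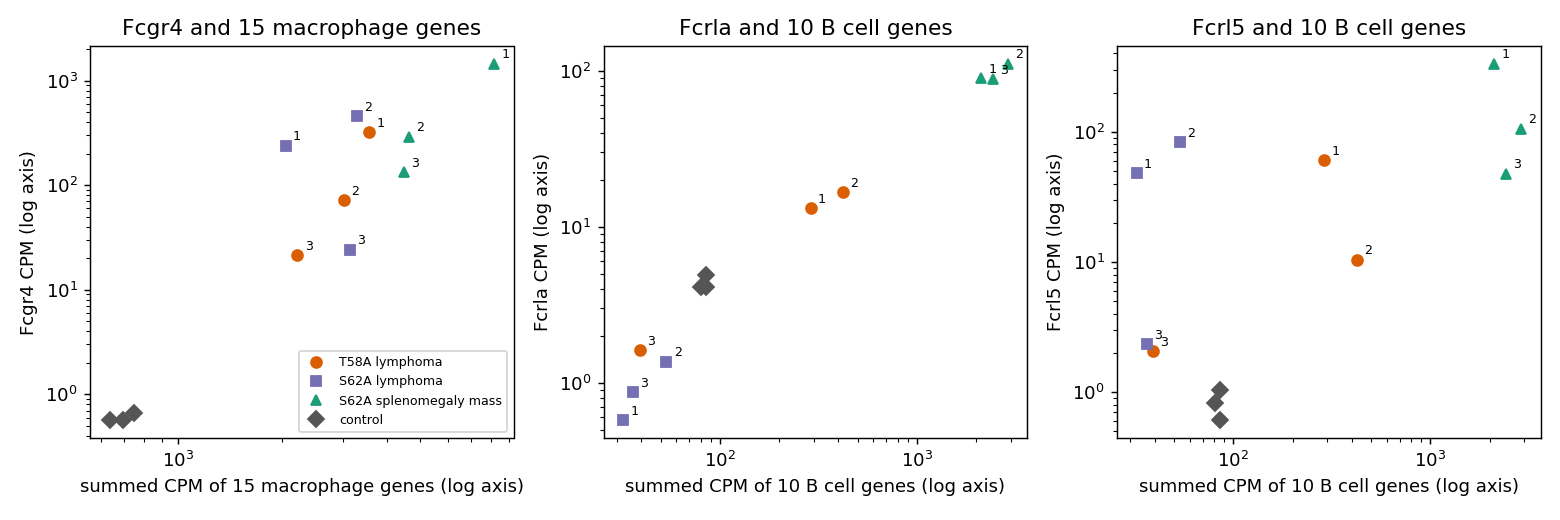
CPM of Fcgr4 against the summed CPM of 15 macrophage genes, and of Fcrla and Fcrl5 against that of 10 B cell genes, all on log axes, 1 point per library with library numbers beside the tumour points. The 3 masses lie highest for Fcrla (88.2 to 111 CPM), and S62A lymphomas 1 and 2 have high Fcrl5 (48.2 and 83.4 CPM) at low B cell sums (32.3 and 53.6 CPM).

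Genes of other cells that carry Fc receptors were counted against controls too. Of 12 granulocyte genes tested, 1 was lower in T58A lymphomas, 11 were lower in S62A lymphomas, and 3 were lower and 1 higher in masses. Among all genes, 17.4%, 22.2% and 26.3% were lower in those 3 comparisons and 18.8%, 21.9% and 22.9% higher. Only the count of lower genes in S62A lymphomas lay above these shares. The 12 genes summed to 81.7 to 231 CPM in T58A lymphomas, 10.1 to 17.2 CPM in S62A lymphomas and 46.0 to 133 CPM in masses, against 142 to 230 CPM in controls. Ly6g, Elane and Retnlg, defining genes of neutrophils, were at 0 reads in S62A lymphomas, while Csf3r, the receptor for a granulocyte growth factor, averaged 9.20 CPM there and 3.51 CPM in controls (log2 difference 1.39 ± 0.71, adjusted p = 0.133). These genes were named after their values were seen, and the part of granulocytes in the receptor levels was not tested. S100a8, a calcium-binding protein of neutrophils, was lower in S62A lymphomas (-5.09 ± 0.70, adjusted p = 0.000252) and in masses (-2.11 ± 0.59, adjusted p = 0.0125).

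Natural killer genes summed to 26.5 to 58.5 CPM in T58A lymphomas, 29.6 to 138 CPM in S62A lymphomas and 96.3 to 205 CPM in masses, against 91.3 to 129 CPM in controls, and of 7 tested 1 was higher in each lymphoma group, 2 were higher in masses, and 1 was lower in every group. Of 8 dendritic cell genes, 1 was higher and 1 lower in T58A lymphomas, 3 were lower in S62A lymphomas and 6 were higher in masses, where their sum of 164 to 374 CPM lay above the 41 to 48.9 CPM of controls. Their sum was 24.2 to 78.7 CPM in T58A lymphomas and 29.7 to 55.2 CPM in S62A lymphomas. Of 8 mast cell and basophil genes, 3 were lower in each lymphoma group, and 2 were lower and 1 higher in masses; they summed to 9.66 to 19.9 CPM in T58A lymphomas, 4.24 to 10.7 CPM in S62A lymphomas and 30.5 to 42.1 CPM in masses, against 43.6 to 64.5 CPM in controls. Of the 10 T cell genes, 4 were lower in T58A lymphomas, 6 were lower in S62A lymphomas, and 9 were lower in masses. Beside these counts stand 18.8%, 21.9% and 22.9% of all genes higher and 17.4%, 22.2% and 26.3% lower in the same 3 comparisons. The natural killer counts lay near those shares. Thy1, a surface marker of T cells, was lower in masses by 4.55 ± 0.30 (-4.55, adjusted p = 2.0e-06).

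For each receptor gene, the genes most like it were found by the root mean square difference of centred log2 CPM over the 12 libraries, where 0 is an identical pattern. Nearest to Fcgr4 were Cd300e (0.524), Sirpb1a (0.834) and Klra2 (1.22). Nearest to Fcgr3 were C1qa (0.277), Gatm (0.293) and Slc8a1 (0.333). Fcgr1 was followed most closely by Cd300ld (0.365), Clec12a (0.372) and Slc11a1 (0.401). For Fcer1g these were Wdfy3 (0.402), Pirb (0.403) and Ptprj (0.407), with Pirb encoding a paired receptor that itself signals by an inhibitory motif. The 12 libraries share groups and depth, so a small difference describes likeness and carries no test.

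Nearest to the inhibitory gene Fcgr2b were Ccl12 (0.325), Gatm (0.418), which also lay near Fcgr3, and Lmo2 (0.44). Nearest to Fcer2a were Cr2 (0.981), Spib (1.0) and Il12a (1.02), and among the nearest to Fcrla were Siglecg (0.224) and Alpl (0.471). Cr2 (CD21) and Siglecg encode surface proteins of B cells. Within the family, Fcgr2b lay nearest to Fcgr3 (0.547), Fcgr1 to Fcer1g (0.563) and Fcer2a to Fcrla (1.20), while Fcgr4 lay 2.36 from its nearest member, Fcgr1. The measure centres each gene and does not scale its range, so the wide range of Fcgr4 adds to its distance.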

How the data were processed

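Libraries were strand-keeping poly(A) libraries from Trizol-extracted RNA, sequenced on a HiSeq instrument, per the labels' protocols. The authors deposited raw read counts for each RefSeq transcript as whole numbers. They also deposited FPKM, in which reads are scaled to transcript length and to depth. The submitters' processing notes name bcl2fastq (2.20.0.422), Bowtie (1.0.0), DESeq2 and build mm9, without their roles. The counter, its use of strand and its treatment of reads with several matches: not given in the sources used here. Start positions were taken as counted from 0 and are printed counted from 1.

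The tables list 36141 transcripts of 24478 symbols. One transcript per symbol, that with the most reads, entered edgeR 4.0.16 (R 4.3.3) after filterByExpr with a minimum count of 10. TMM scaling and a quasi-likelihood fit with group as the only term covered all 12 libraries, and p-values were adjusted by Benjamini-Hochberg over 15606 genes, threshold 0.05. CPM are TMM-scaled. The scripts were tested on simulated data. FPKM served to compare levels between genes. Alternatives were DESeq2 (1.42.0) size factors and its Wald test, library size alone, no filter, only the 2 groups compared, the transcript with the fewest reads, limma (3.58.1) on log2(FPKM + 0.1) or log2(FPKM + 1), title letter H alone, and leaving out each library. Library numbers within a group are names and do not pair libraries. The genes and all lists were chosen with earlier results of these data known. Named beside the 7 genes were the other Fc receptor genes, up to 3 genes per list by mean CPM, and the 3 genes nearest in pattern. The result of 1 gene that this rule named is not reported here.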

Additional observations from a re-analysis of the deposited data

How the results depend on the processing

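Counts of Fc receptor genes called against controls leave out Fcgr4, for which no test is given there. Counts between tumour groups and the tally of single-gene values below include it. The direction held in all alternatives run for every difference from controls past the threshold. With title letter H alone (control 3 against 3 T58A lymphomas) edgeR called 413 genes over the whole series, against 5646 with all libraries. The lone control is there assumed to vary like the lymphomas, so no call of an Fc receptor gene is drawn from that fit. In S62A lymphomas against controls, fewer genes were called higher with library size alone, in the 3 limma settings and without some single libraries. Genes called lower there numbered 0 in place of 2 by limma with log2(FPKM + 1) (2 at an unadjusted p, where 8228 genes passed in either direction) and 1 to 2 without single libraries. In S62A against T58A lymphomas, 0 in place of 3 were lower with only those groups fitted (4 at an unadjusted p), 1 by limma with log2(FPKM + 1) or without a filter, and 0 to 3 without single libraries. Over all genes that comparison gave 492 calls, 1754 by DESeq2's Wald test, 0 with only those groups (2045 at an unadjusted p), 282 and 276 in those limma settings and 139 to 783 without single libraries. Signs that turned belonged to differences not past the threshold. In T58A lymphomas against controls Fcer2a ran from -0.10 to 2.17 without single libraries. In S62A against T58A lymphomas Fcgr1 ran from -0.21 (also -0.05) to 1.12, Fcgr4 from -0.0706 to 2.36 and Fcer1g from -0.35 (also -0.12 and -0.05) to 0.94, and limma gave Fcer1g -0.0369 with log2(FPKM + 0.1), -0.0344 with log2(FPKM + 1) and -0.0369 without a filter. Fcgr4 in masses against S62A lymphomas ran from -0.13 to 2.25. The cause was not tested. Of the single-gene values under alternatives, 554 kept their side of the threshold and direction, 62 lost the call, 10 gained it and 11 turned sign. No paired analysis was possible because the labels give no replicate numbers. In S62A lymphomas 11 reads in all limit Fcer2a.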
